A study of Mus musculus with 6 samples.

Results

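The genes of the surface antigens that define or accompany skin cancer stem cells were followed in stem cell fractions sorted from squamous cell carcinomas of Sfrp1-/- mice (Sfrp1_KO) and of wild-type (WT) mice. The 9 genes were taken by name and comprise 2 positive antigens of the sort (Cd34 and Epcam), 2 antigens of the kind used for lineage depletion (Ptprc and Pecam1) and 5 other surface markers of stem or progenitor cells (Cd44, Prom1, Cd24a, Cd200 and Thy1). All 9 were measured, among 30142 named genes on the array. Each had 1 transcript cluster, the gene-level unit of this array, so splice forms such as those of Cd44 and Ptprc were not resolved.

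Sfrp1 encodes a secreted antagonist of Wnt signalling, and the genotypes were compared to learn what its loss changes in the stem cells of such tumours. Mice of both genotypes received the mutagen DMBA on 3 days (postnatal days 23, 25 and 27) and then the tumour promoter TPA 2 times a week for 30 to 40 weeks. Cells that were lineage negative and positive for Epcam, α6 integrin and CD34 were sorted from the carcinomas of both genotypes, and total RNA of 3 Sfrp1_KO and 3 WT samples went onto 1 Affymetrix MTA 1.0 array each. The labels name neither the strain, sex and age at collection, nor the lineage antigens, the deleted part of Sfrp1, or whether a sample is 1 animal or a pool. The p-values therefore describe differences against the spread of these 6 samples only, part of which may be technical.

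CD34 is a sialomucin of hair follicle stem cells, of vascular endothelium and of some fibroblasts, and in mouse skin carcinomas it marks cells that can regrow the tumour. EpCAM is an adhesion protein of simple and progenitor epithelia. A sort selects on protein at the cell surface, whereas an array measures RNA.

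Array values are the deposited log2 signals. The highest of 23 background probe sets, called the background level here, lay between 5.04 and 5.10 on the Sfrp1_KO arrays and between 4.82 and 5.09 on the WT arrays. Between 33.2% and 35.0% of the 30142 genes stood above it on Sfrp1_KO arrays and between 34.5% and 42.5% on WT arrays. Sfrp1 itself was at 5.09, 5.11 and 5.15 on the Sfrp1_KO arrays, against 5.71, 5.48 and 6.07 on the WT arrays, a difference of -0.64 (SE 0.15) that did not pass the test over all genes (adjusted p = 0.0969). If the probes lie outside the deleted part, these values do not check the genotype. Differences are Sfrp1_KO minus WT, fitted with limma over all 30142 genes, with Benjamini-Hochberg adjustment and a threshold of 0.05. The highest deposited value, 19.93, exceeds the 16 bits of a scanner, so a log2 unit need not be a doubling of RNA and no folds are given.

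Of the 9 genes, Cd44 and Epcam fell and Thy1 rose in Sfrp1_KO, and 6 did not pass the test. Of all genes tested 3.28% were called, 1.45% as lower and 1.83% as higher in Sfrp1_KO. The arrays of the genotypes did not overlap for 6 of the 9 genes, 4 lower and 2 higher in Sfrp1_KO, where 19.9% of all genes separated in this way (10.8% lower and 9.1% higher). An unadjusted limma p under 0.05 was reached by 14.4% of all genes. Among the 9 it was reached by Cd34, Epcam, Cd44, Cd24a, Cd200 and Thy1. The median difference over the 9 genes was 0.02, against -0.01 over all genes. In bulk RNA, fewer cells of a type and less RNA per cell cannot be told apart.

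**Figure D1:**
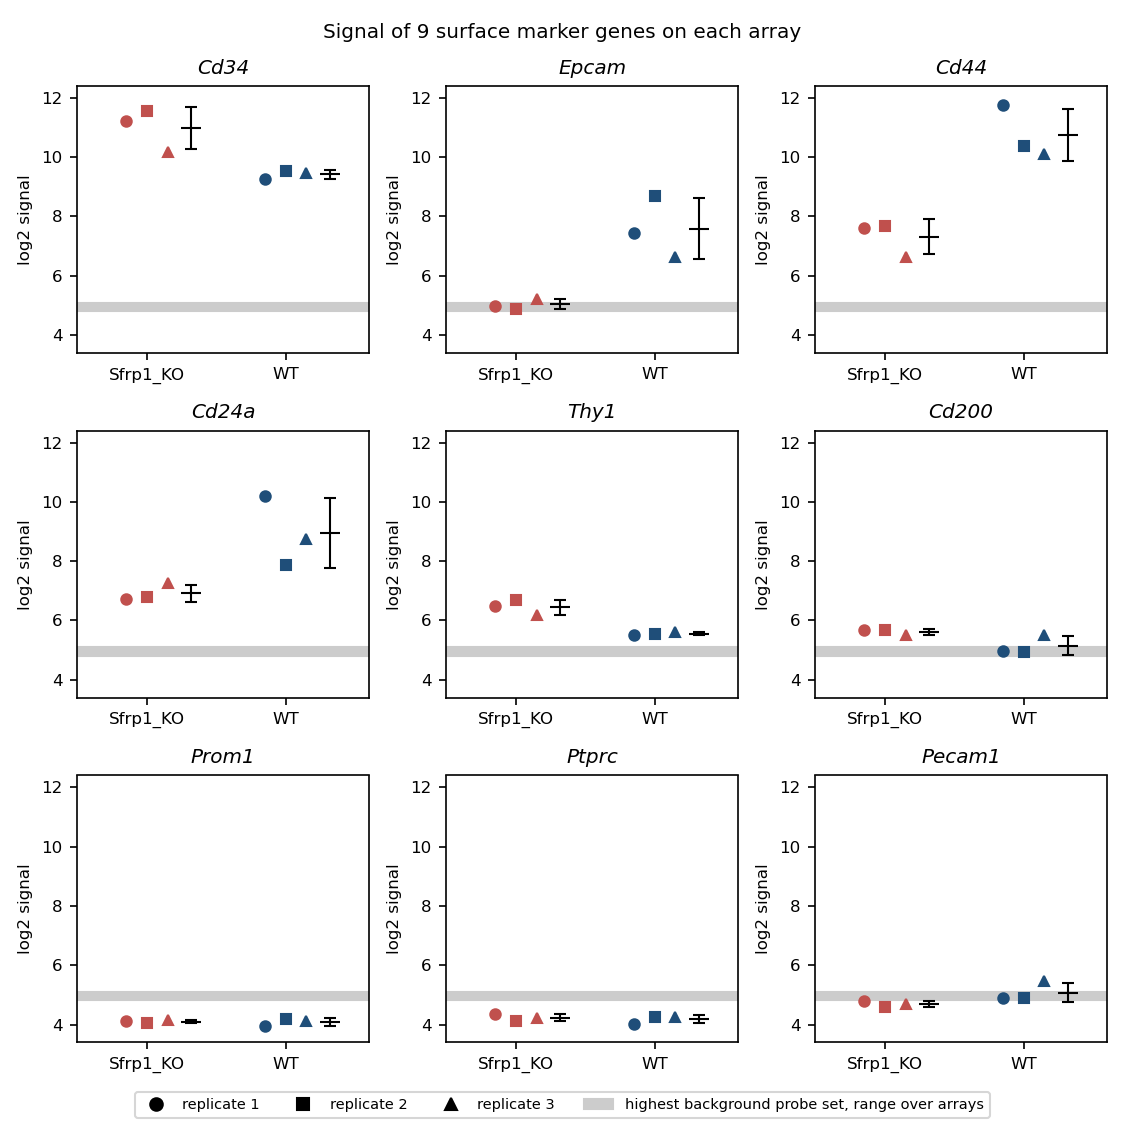
Deposited log2 signal of each of the 9 genes (vertical axis) on the 3 Sfrp1_KO arrays and the 3 WT arrays, with the mean and SD (n = 3) as black bars and the range of the background level over arrays in grey. The Sfrp1_KO arrays lie above the WT arrays for Cd34 and Thy1 and below them for Epcam, Cd44, Cd24a and Pecam1.

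Promoter sequences are given for the 2 positive sort antigens and for Cd44, the surface marker with the largest difference, to set beside the falls of Epcam and Cd44 and the Cd34 values, which lay above WT on each Sfrp1_KO array. They are the 250 bases before the RefSeq start of each gene, written 5′ to 3′ on the gene's strand. Capitals mark CACCTG or its reverse complement CAGGTG, an E-box core bound by repressors of the Zeb and Snail families, and the GC box GGGCGG or its reverse complement CCGCCC, a binding motif of Sp1.
Epcam (GRCm38.p6, chr17:87635729-87635978, plus strand): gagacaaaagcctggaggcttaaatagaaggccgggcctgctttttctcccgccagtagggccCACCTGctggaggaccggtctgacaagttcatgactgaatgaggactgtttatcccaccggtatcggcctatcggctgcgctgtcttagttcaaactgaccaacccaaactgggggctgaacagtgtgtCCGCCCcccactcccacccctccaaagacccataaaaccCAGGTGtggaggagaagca
Cd44 (GRCm38.p6, chr2:102901666-102901915, minus strand): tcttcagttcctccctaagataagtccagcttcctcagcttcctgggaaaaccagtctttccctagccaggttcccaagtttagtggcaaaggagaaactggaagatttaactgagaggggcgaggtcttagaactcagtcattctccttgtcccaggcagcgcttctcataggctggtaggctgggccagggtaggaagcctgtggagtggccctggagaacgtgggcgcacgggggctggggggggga
Cd34 (GRCm38.p6, chr1:194938571-194938820, plus strand): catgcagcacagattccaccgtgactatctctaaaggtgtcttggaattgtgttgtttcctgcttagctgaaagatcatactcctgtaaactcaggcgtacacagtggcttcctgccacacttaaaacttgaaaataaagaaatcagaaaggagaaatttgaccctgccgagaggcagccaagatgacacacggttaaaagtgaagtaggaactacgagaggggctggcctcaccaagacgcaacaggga
The Epcam promoter held 2 E-box matches, starting 187 and 19 bases before the gene start, and 1 GC box match at 58 bases. The Cd44 and Cd34 promoters held no match to either motif in these windows. Among windows not printed, 1 of Prom1 (difference 0.02) held 1 E-box and 1 GC box match, and that of Cd200 held 1 GC box match. Whether any match bears on the differences was not tested. Of 32851 mouse promoter windows of 250 bases, 17.2% held the E-box letters on either strand, 2.06% held them at least 2 times and 32.7% held the GC box. The G and C content was 56.4% for Epcam, 56.4% for Cd44 and 46.4% for Cd34, against a median of 52.4% over all windows. Promoter windows were available for 6 of the 9 genes, but not for Cd24a, Pecam1 and Thy1.

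Cd34, on chromosome 1, was at 11.23, 11.55 and 10.19 log2 units on the Sfrp1_KO arrays, against 9.26, 9.54 and 9.46 on the WT arrays. Every Sfrp1_KO array lay above every WT array, with a gap of 0.65, and the Sfrp1_KO arrays were the more spread (SD 0.71, against 0.15 in WT, n = 3 each). The difference was 1.57 (SE 0.34, 95% CI 0.76 to 2.38) and did not pass (limma adjusted p = 0.0714), while 1.48% of all genes had a larger difference in either direction. The call depended on Sfrp1_KO replicate 3: without it the difference was 1.97 (limma adjusted p = 0.00664). Cd34 also passed with limma after quantile normalization once more (1.56, adjusted p = 0.0284), with array weights (1.70, adjusted p = 0.0299) and among the 11011 genes above background on at least 3 arrays (adjusted p = 0.0441).

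Epcam, on chromosome 17, was at 4.99, 4.89 and 5.22 on the Sfrp1_KO arrays, against 7.43, 8.69 and 6.65 on the WT arrays. On 2 of the 3 Sfrp1_KO arrays it was not above background, although these cells had been sorted as Epcam positive, and all WT arrays were above it. Epcam fell by 2.56 log2 units (SE 0.48, 95% CI -3.71 to -1.41, limma adjusted p = 0.0455). The WT arrays spread widely (SD 1.03, against 0.17 in Sfrp1_KO), and the call ended when WT replicate 1 or a single Sfrp1_KO array was left out (adjusted p of 0.103 to 0.184). Itga6, the gene of the α6 integrin of the same gate, was at 7.56, 7.82 and 7.47 on Sfrp1_KO arrays, against 10.22, 9.30 and 9.0 on WT arrays. Itga6 fell by 1.89 (SE 0.31, limma adjusted p = 0.0292), a call lost when WT replicate 2 or a single Sfrp1_KO array was left out (adjusted p of 0.065 to 0.111).

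Ptprc and Pecam1, which may or may not be among the unnamed lineage antigens of this sort, were low in both genotypes. Ptprc, on chromosome 1, encodes CD45, the phosphatase carried by nearly all leukocytes. Its values were 4.34, 4.12 and 4.23 on Sfrp1_KO arrays and 4.03, 4.26 and 4.25 on WT arrays, under the background level on all 6 (difference 0.05, 95% CI -0.20 to 0.30, limma adjusted p = 0.925). Pecam1, on chromosome 11, encodes CD31, the junction protein of endothelial cells. It was at 4.80, 4.61 and 4.69 on Sfrp1_KO arrays, against 4.88, 4.89 and 5.45 on WT arrays, and WT replicate 3 was the 1 array above background. The Pecam1 groups were 0.09 apart at their nearest, and the difference of -0.38 (SE 0.17, 95% CI -0.79 to 0.03) did not pass (limma adjusted p = 0.385). Without WT replicate 3 it was -0.19.

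**Figure D2:**
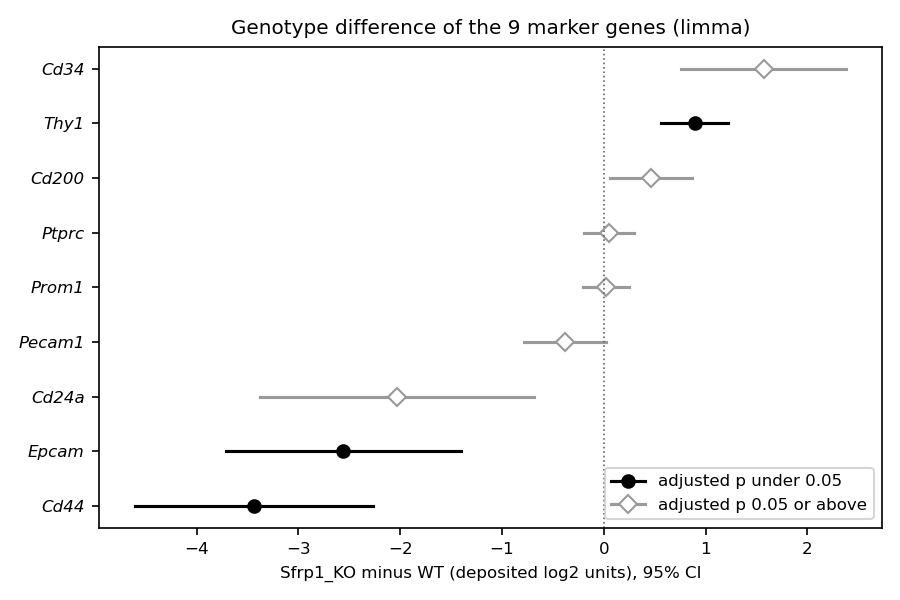
Difference in deposited log2 units (horizontal axis, Sfrp1_KO minus WT) of the 9 genes with its 95% confidence interval from limma. Filled points passed the test over all genes: Thy1 at 0.89, Epcam at -2.56 and Cd44 at -3.44.

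Cd44, on chromosome 2, encodes the main receptor of hyaluronan and marks tumour-initiating cells of several carcinomas. It was at 7.62, 7.69 and 6.63 on the Sfrp1_KO arrays, against 11.75, 10.39 and 10.12 on the WT arrays. The lowest WT array was 2.42 above the highest Sfrp1_KO array, the widest gap of the 9 genes, and all 6 arrays were above background. Cd44 fell by 3.44 (SE 0.49, 95% CI -4.61 to -2.27, limma adjusted p = 0.0188), and 0.239% of all genes had a larger difference. Leaving out any 1 of the Sfrp1_KO arrays ended the call (adjusted p of 0.0517 to 0.0749) with differences of -3.63 to -3.10.

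Cd24a, on chromosome 10, encodes a small glycosylphosphatidylinositol-anchored mucin of epithelial progenitors and immature blood cells. It was at 6.71, 6.78 and 7.25 on Sfrp1_KO arrays, against 10.21, 7.87 and 8.76 on WT arrays, with no overlap and all arrays above background. The WT spread was the largest of the 9 genes (SD 1.18, against 0.30 in Sfrp1_KO), and the difference of -2.03 (SE 0.56, 95% CI -3.38 to -0.69) did not pass (limma adjusted p = 0.140). It did not pass with any 1 of the 6 arrays left out, the lowest adjusted p being 0.0582 without WT replicate 2.

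Thy1, on chromosome 9, encodes CD90, a glycosylphosphatidylinositol-anchored protein of T cells, neurons and fibroblasts. It was at 6.48, 6.68 and 6.18 on Sfrp1_KO arrays, against 5.51, 5.53 and 5.62 on WT arrays, all above background and without overlap. Thy1 rose by 0.89 (SE 0.14, 95% CI 0.56 to 1.22, limma adjusted p = 0.0237). The SD was 0.25 in Sfrp1_KO and 0.06 in WT (n = 3 each). Its call ended without any 1 of the WT arrays or without Sfrp1_KO replicate 1 or 2 (adjusted p of 0.0662 to 0.10).

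Cd200, on chromosome 16, encodes a membrane glycoprotein that restrains myeloid cells and marks hair follicle bulge cells. It was at 5.67, 5.67 and 5.51 on Sfrp1_KO arrays, against 4.99, 4.95 and 5.53 on WT arrays, where replicate 3 overlapped with Sfrp1_KO and was the 1 WT array above background. The difference of 0.46 (SE 0.17, 95% CI 0.06 to 0.87) did not pass (limma adjusted p = 0.271). Without WT replicate 3 it was 0.65 and did (limma adjusted p = 0.0460). The annotation ties this transcript cluster to a second gene identifier beside that of Cd200, so its probes may read an overlapping gene. Prom1, on chromosome 5, encodes CD133, a protein of membrane protrusions and a stem cell marker of several tumours. Its values were 4.11, 4.04 and 4.15 on Sfrp1_KO arrays and 3.94, 4.18 and 4.12 on WT arrays, not above background on any, with a difference of 0.02 (95% CI -0.20 to 0.24, limma adjusted p = 0.976).

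Both Prom1 and Ptprc lay between the median of the background probe sets, at 3.65 to 3.74 on Sfrp1_KO arrays and 3.70 to 3.73 on WT arrays, and the highest of them. Of the 6 genes above background on every array of at least 1 genotype, 5 had the larger SD in the genotype where they were higher, Cd200 being the exception. The order of the arrays within a genotype was not shared: among WT arrays, Epcam was highest in replicate 2, Cd44 and Cd24a in replicate 1, and Cd200 and Pecam1 in replicate 3. Among Sfrp1_KO arrays, replicate 3 was lowest for Cd34, Cd44, Thy1 and Cd200 and highest for Epcam and Cd24a. The adjusted p of the 5 genes with the largest differences is plotted under each setting tried.

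**Figure D3:**
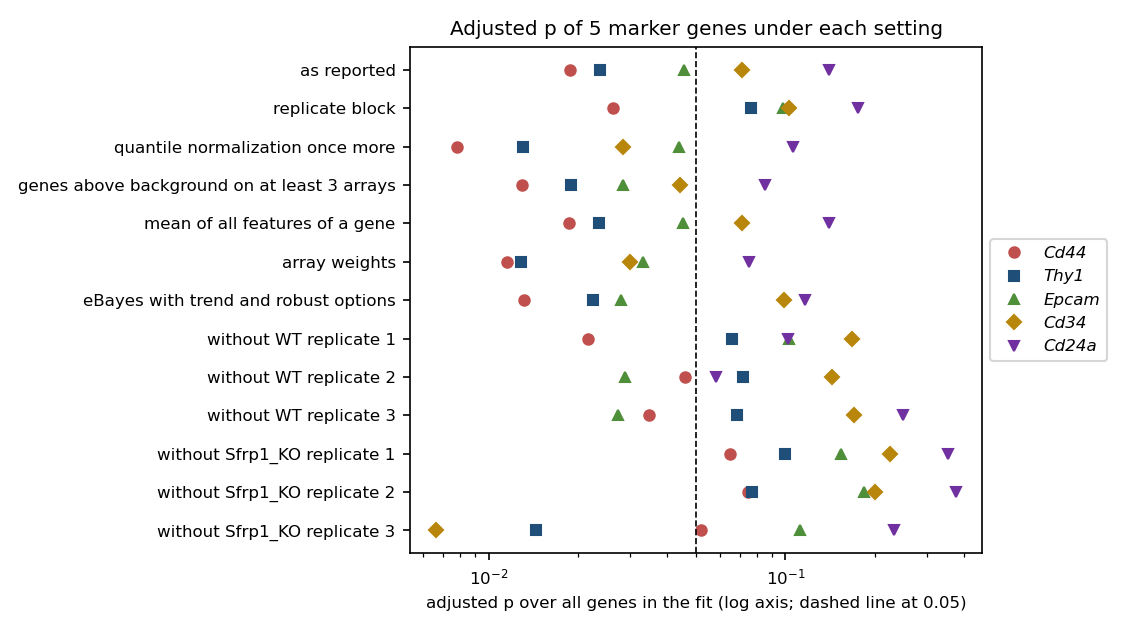
Adjusted p over all genes in the fit (horizontal log axis, threshold 0.05 dashed) for Cd44, Thy1, Epcam, Cd34 and Cd24a as reported and under each alternative setting. Cd34 moves from 0.0714 as reported to 0.00664 without Sfrp1_KO replicate 3, while Cd44, Thy1 and Epcam move above 0.05 without some single arrays.

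The genes that stood closest to each marker over the 6 arrays were found among 10375 genes above background on every array of a genotype, by the root mean square difference (RMS) of the mean-centred values. Closest to Cd34 were Vcam1, an adhesion molecule of activated endothelium and stroma (RMS 0.09), Tnfrsf26, a death receptor homologue (0.13), and Hexa, a lysosomal hexosaminidase (0.15). None of these 3 passed over all genes (limma adjusted p of 0.0699 to 0.0788). Their values follow those of Cd34 by choice, so their adjusted p adds no support to the Cd34 difference. Closest to Epcam were Slco2a1, a prostaglandin transporter (RMS 0.30), Ctsc, which encodes cathepsin C (0.32), and Moxd1, a monooxygenase (0.37). Closest to Cd44 were Nrg1, a ligand of ErbB receptors (RMS 0.30), the mitochondrial protein gene Fam162a (0.36) and the carbonyl reductase gene Cbr2 (0.39). Nrg1 fell by at least 3.43 log2 units, to below background in Sfrp1_KO, for its brightest feature, while the mean of all its features fell by 1.81 (SE 0.24, limma adjusted p = 0.0167). Slco2a1 fell by 2.22 (SE 0.29), Moxd1 fell by 2.49 (SE 0.22), Fam162a fell by 3.22 (SE 0.38) and Cbr2 fell by 3.56 (SE 0.60). Slco2a1 and Moxd1, like Epcam, were above background on only 1 of the 3 Sfrp1_KO arrays, which may limit the size of their falls.

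Closest to Cd24a were Lad1, an anchoring filament protein of the epidermis (RMS 0.25), Krt1, a keratin of suprabasal epidermis (0.29), and Vsnl1, a neuronal calcium sensor (0.32). Closest to Thy1 were the creatine transporter gene Slc6a8 (RMS 0.03), the magnesium transporter gene Slc41a2 (0.07) and Plod1, a collagen lysyl hydroxylase (0.07), and these rose by 0.91 (SE 0.15), 0.80 (SE 0.11) and 0.97 (SE 0.10). Closest to Cd200 were Eda2r, a receptor of the ectodysplasin pathway (RMS 0.06), Mcu, the mitochondrial calcium uniporter (0.08), and the ephrin gene Efnb2 (0.09). Since the genotypes form separate groups of arrays, these RMS values describe likeness and are no test. Among these genes Moxd1 and Plod1 kept their calls without any 1 array. Slco2a1, Nrg1, Fam162a, Cbr2, Lad1, Slc6a8 and Slc41a2 each lost theirs without Sfrp1_KO replicate 2 (highest adjusted p without 1 array between 0.0608 and 0.182). Further calls ended without Sfrp1_KO replicate 1 (all of these 7 but Fam162a), Sfrp1_KO replicate 3 (Nrg1, Cbr2 and Lad1), WT replicate 1 (Slc6a8), WT replicate 2 (Cbr2 and Slc6a8) and WT replicate 3 (Lad1, Slc6a8 and Slc41a2). Of those not called, Ctsc passed without WT replicate 3, and Krt1 and Vsnl1 without WT replicate 2. Vcam1, Tnfrsf26 and Hexa, the genes closest to Cd34, passed like Cd34 without Sfrp1_KO replicate 3 (limma adjusted p of 0.00346 to 0.0207).

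Partners and relatives of the markers were taken as lists. Of all genes, 1.45% were called lower and 1.83% higher in Sfrp1_KO. Of 11 measured relatives and partners of Epcam 4 fell, none rose and 7 did not pass (median difference -0.38). St14, the membrane serine protease matriptase, was at 5.20, 5.15 and 5.32 on Sfrp1_KO arrays, against 7.31, 6.94 and 7.37 on WT arrays, and fell by 1.98 (SE 0.13, limma adjusted p = 0.00201). Its inhibitors Spint1 and Spint2 fell by 1.41 (SE 0.19) and by at least 0.68, and the tight junction gene Cldn1 fell by at least 0.29. The claudin gene Cldn7, whose protein binds EpCAM, was at 4.88, 4.88 and 5.15 on Sfrp1_KO arrays and 5.43, 5.30 and 5.32 on WT arrays (limma adjusted p = 0.132). The claudin gene Cldn4 had the largest difference of the list, -3.57, and did not pass (limma adjusted p = 0.0588). It was at 5.13, 5.01 and 4.30 on Sfrp1_KO arrays, against 9.67, 8.78 and 6.71 on WT arrays. Cldn7 and Cldn4 are named outside the rule after their values were seen.

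Of 13 measured genes of hyaluronan synthesis, Cd44 partners and Cd44 splicing 4 fell and none rose (median -0.53). The epithelial splicing regulators Esrp1 and Esrp2, which direct inclusion of the variable exons of Cd44, were under background on all Sfrp1_KO arrays. Esrp1 was at 4.62, 4.55 and 4.60 there, against 7.48, 6.86 and 7.40 on WT arrays, and fell by at least 2.18 log2 units (limma adjusted p = 0.00183). Esrp2 fell by at least 0.89 (limma adjusted p = 0.00394). Ezr, which encodes ezrin, a linker between Cd44 and actin, fell by 0.75 (SE 0.11) and the hyaluronan synthase gene Has3 by at least 0.05. Cd44 exon usage was not measured by 1 value per gene.

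Calls for St14, Esrp1 and Esrp2 held without any 1 array. Those of Spint1, Spint2, Cldn1, Ezr and Has3 ended without Sfrp1_KO replicate 1 or Sfrp1_KO replicate 2 (highest adjusted p without 1 array between 0.0601 and 0.162). They also ended without Sfrp1_KO replicate 3 (Cldn1 and Has3), WT replicate 1 (Ezr and Has3), WT replicate 2 (Cldn1 and Ezr) and WT replicate 3 (Spint1, Cldn1, Ezr and Has3). After quantile normalization once more Ezr (limma adjusted p = 0.0583) and Has3 (0.0505) were not called, nor was Ezr with trend and robust options (0.0831).

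Of 23 other surface stem cell markers 2 rose and 2 fell (median -0.16). Cxcr4, the receptor of the chemokine Cxcl12, was at 6.13, 6.03 and 6.24 on Sfrp1_KO arrays, against 4.68, 4.35 and 4.98 on WT arrays, and rose by 1.47 (SE 0.17, limma adjusted p = 0.00963). Cd47, a signal against phagocytosis, was at 8.69, 9.53 and 8.82 on Sfrp1_KO arrays, against 7.65, 7.18 and 7.29 on WT arrays, and rose by 1.64 (SE 0.25, limma adjusted p = 0.0221). Itga6 fell as above, and so did Lgr6, an R-spondin receptor of epidermal stem cells (limma adjusted p = 0.0197). Lgr6 was at 4.42, 4.30 and 4.47 on Sfrp1_KO arrays, under background, against 5.19, 4.99 and 4.99 on WT arrays, whose mean was itself too close to background to give a least difference. The Cxcr4 call held without any 1 array. Cd47 lost its call without WT replicate 2, WT replicate 3, Sfrp1_KO replicate 1 or Sfrp1_KO replicate 3 (adjusted p up to 0.0774), and Lgr6 without WT replicate 3, Sfrp1_KO replicate 1 or Sfrp1_KO replicate 2 (up to 0.0922).

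Of 5 measured ligands of Thy1 the integrin gene Itgb3 rose by at least 0.60, with 5.54, 5.68 and 5.46 on Sfrp1_KO arrays against 4.47, 4.54 and 4.71 on WT arrays (limma adjusted p = 0.00763, list median 0.10), and the call held without any 1 array. The 5 measured relatives and ligands of Cd34 had no gene called by limma, 1 with an unadjusted p under 0.05 and a median of -0.0028, with the smallest p for the selectin genes Sele (5.66, 5.91 and 5.06 in Sfrp1_KO, against 4.65, 4.66 and 5.21 in WT, limma adjusted p = 0.271) and Selp (0.531). The sialomucins nearest to CD34, Podxl and Podxl2, were under background on all arrays and are named outside the rule. All 7 measured receptors of Cd24a and Cd200 were under background on all arrays (median -0.03), with 0 called by limma and 0 at an unadjusted p under 0.05, Selp and Cd200r4 having the smallest p (limma adjusted p of 0.531 and 0.598).

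The Prom1 list had 2 measured genes, both at an unadjusted p under 0.05 and neither called by limma (median -0.57). Its relative Prom2 was at 4.74, 4.73 and 4.71 on Sfrp1_KO arrays, under background, against 5.69, 5.72 and 6.91 on WT arrays (limma adjusted p = 0.0900), and passed without WT replicate 3 (adjusted p = 0.0105), while Hdac6 did not pass (0.267). Of 5 measured partners of Ptprc and Pecam1 none was called by limma and 1 had an unadjusted p under 0.05 (median 0.03). Ptprcap was under background on all arrays (limma adjusted p = 0.837). Lgals1, which encodes the CD45-binding lectin galectin 1, was at 16.87, 16.63 and 15.27 on Sfrp1_KO arrays, against 13.41, 11.97 and 8.79 on WT arrays (limma adjusted p = 0.0916).

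Markers of keratinocytes and of other cell types of skin tumours were compared on the same arrays. The cells were gated as lineage negative and positive for Epcam, and the labels leave the lineage antigens unnamed. The purity of the sorted cells was not tested. All 14 keratinocyte markers were lower on every Sfrp1_KO array than on any WT array (10.8% of all genes were). Of them 12 fell (1.45% of all genes did, list median -4.47). Their summed signal was 9.77 to 9.83 log2 units in Sfrp1_KO, against 17.00 to 17.96 in WT. The WT sums lay close to Krt5 alone, which was at 17.67, 16.81 and 17.68 on the WT arrays. Itga6 stands in this list too. Krt5 and Krt14, the keratins of basal epidermis, and the desmosomal genes Dsp and Dsg3 fell most. Krt5 fell by 10.74 log2 units, Krt14 fell by 7.45, Dsp fell by 5.84 and Dsg3 fell by 5.80, and all 4 kept their calls without any 1 array. Epcam, Cd44 and Cd24a were lower on the same arrays, and the part of the keratinocyte signal in their values was not tested.

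Of 15 fibroblast and pericyte markers Pdgfrb rose and none fell (median -0.09), and their summed signal was 10.94 to 11.90 in Sfrp1_KO, against 10.16 to 12.54 in WT. Pdgfrb, a growth factor receptor of fibroblasts and pericytes, was at 8.92, 9.47 and 7.93 on Sfrp1_KO arrays, against 5.11, 4.80 and 5.25 on WT arrays, and rose by 3.72 (SE 0.38, limma adjusted p = 0.00696), also without any 1 array. The arrays of the genotypes did not overlap for 6 of the 15, 3 higher and 3 lower in Sfrp1_KO, where 9.1% and 10.8% of all genes separated in this way. The higher ones were Pdgfrb, the collagen gene Col3a1 and Fap, of which only Pdgfrb passed. Col3a1 was at 6.57, 7.13 and 6.77 on Sfrp1_KO arrays, against 5.70, 5.63 and 6.29 on WT arrays (difference 0.95, limma adjusted p = 0.0905). Fap was under background on all arrays (difference 0.18, limma adjusted p = 0.432). The 3 lower ones, none of which passed, were Postn, Nt5e and Mcam. The matrix gene Postn was at 6.02, 6.46 and 6.20 on Sfrp1_KO arrays, against 8.27, 8.74 and 11.71 on WT arrays (difference -3.35, limma adjusted p = 0.117). The surface nucleotidase gene Nt5e was at 5.34, 5.29 and 5.41 on Sfrp1_KO arrays, against 6.22, 8.57 and 6.99 on WT arrays (difference -1.92, limma adjusted p = 0.158). Mcam, an adhesion molecule of pericytes and endothelium, was at 5.70, 5.73 and 5.66 on Sfrp1_KO arrays, against 7.61, 6.45 and 7.38 on WT arrays (difference -1.45, limma adjusted p = 0.0552). The matrix gene Dcn was at 10.18, 11.15 and 10.11 on Sfrp1_KO arrays and 6.54, 6.58 and 10.56 on WT arrays, with overlap (difference 2.58, limma adjusted p = 0.356). Within the list, then, Pdgfrb and Postn differed in opposite directions, and WT replicate 3, which was highest for Pecam1 and Cd200 among WT arrays, was also the highest WT array for Dcn and Postn. Col3a1, Fap, Postn, Nt5e, Mcam and Dcn are named outside the rule, after their values were seen.

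None of 23 leukocyte markers passed limma's test over all genes and 8 had an unadjusted p under 0.05 (14.4% of all genes did). Of the 23, 14 were under background on all arrays (median 0.18). The arrays did not overlap for 8 markers that were higher in Sfrp1_KO (9.1% of all genes were) and for 1 that was lower (10.8%), the T cell gene Cd8a, named outside the rule and under background throughout. Their summed signal was 9.30 to 9.95 in Sfrp1_KO, against 9.08 to 9.21 in WT. The macrophage lysozyme gene Lyz2 was at 7.95, 6.84 and 5.96 on Sfrp1_KO arrays, against 5.11, 4.69 and 5.02 on WT arrays (limma adjusted p = 0.0941), and Laptm5 at 5.58, 5.40 and 4.91, against 4.44, 4.69 and 4.50 (0.100). Both passed without Sfrp1_KO replicate 3 (0.0352 and 0.0257), the array in which they and Cd34 were lowest among the Sfrp1_KO arrays. Ptprc, their shared antigen, was under background throughout.

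Of 15 endothelial markers none passed limma's test, 3 had an unadjusted p under 0.05 and 12 were under background on all arrays (median -0.09, summed signal 8.29 to 8.75 in Sfrp1_KO, against 8.12 to 8.50 in WT). Cdh5, the cadherin of endothelial junctions, was at 7.15, 6.70 and 4.88 on Sfrp1_KO arrays, against 4.21, 4.36 and 5.16 on WT arrays (limma adjusted p = 0.264), and the VEGF receptor gene Flt1 at 5.42, 5.72 and 5.10, against 4.62, 4.74 and 4.76 (0.0817). Both passed without Sfrp1_KO replicate 3 (adjusted p of 0.0337 and 0.0379). Cd34 was likewise higher in Sfrp1_KO replicates 1 and 2 than in replicate 3, in cells gated as lineage negative and Epcam positive. So were Pdgfrb (8.92, 9.47 and 7.93) and Thy1 (6.48, 6.68 and 6.18). Cd44, which fell in Sfrp1_KO, had the same order (7.62, 7.69 and 6.63), whereas Epcam and Cd24a were highest in replicate 3. The part of endothelial, leukocyte, fibroblast or pericyte RNA in the Cd34 and Thy1 values was not tested. Pecam1 was under background on all Sfrp1_KO arrays, as were Tek, Tie1, Vwf, Kdr, Esam and Cldn5, which are named here outside the rule.

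None of 7 melanocyte markers and none of 4 measured erythroid markers passed limma's test, with 1 and 0 at an unadjusted p under 0.05 (medians -0.03 and -0.01). The melanocyte list summed to 7.33 to 7.60 in Sfrp1_KO, against 7.16 to 7.45 in WT, and Mitf, a transcription factor also expressed elsewhere, was its 1 gene above background (limma adjusted p = 0.221, and 0.604 for Mlana). The erythroid list summed to 6.19 to 6.22 in Sfrp1_KO, against 6.20 to 6.30 in WT, with all 4 genes under background (limma adjusted p = 0.658 for Alas2 and 0.917 for Rhag).

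**Figure D4:**
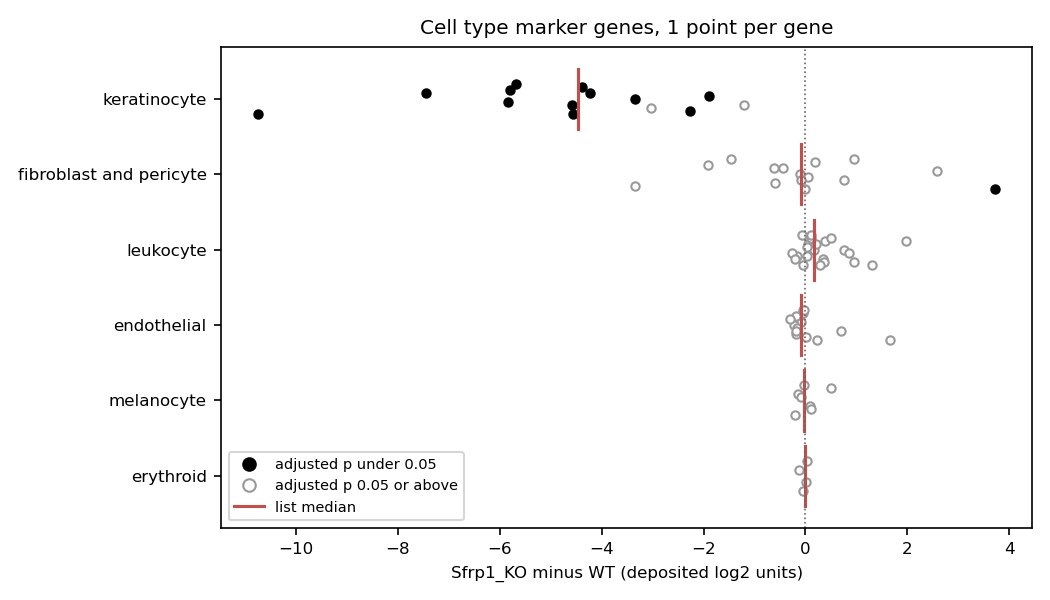
Difference in deposited log2 units (horizontal axis, Sfrp1_KO minus WT) of each measured marker gene of 6 cell types, with the list median in red and filled points for genes that passed the test over all genes. The keratinocyte median is -4.47, and the other 5 medians lie between -0.09 and 0.18.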

How the data were processed

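Per the submitters' processing notes, the authors used RMA and Affymetrix Expression Console. The values they deposited are log2 signals per probe set. For version, summarisation level and genome build, nothing is given in the sources used here. The table has 72688 features, 6732 of them controls. Features with 1 platform gene symbol were named (30604, symbols updated through RefSeq identifiers), and the brightest feature per gene gave 30142 genes. Genotypes came from the sample titles. Differences, SEs and intervals are from limma 3.58.1 in R 4.3.3 (lmFit, eBayes, two-sided, Benjamini-Hochberg over all genes, no filter). A gene counts as above background on an array when it exceeds the highest of the 23 background probe sets. If no array of a genotype exceeds it, "at least" gives the other genotype's mean minus that level, averaged over arrays. Summed signals are log2 of the sum of the unlogged values. They take a log2 unit as a doubling, and the brightest genes of a list weigh most in them.

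The members and the gene lists were chosen with earlier results of these data known. Named are the 9 markers, Sfrp1, Itga6, up to 4 called genes per direction and list (otherwise the 2 with the smallest p), and the 3 genes nearest to each detected marker. On data simulated from the 30142 genes and 6 arrays of this comparison, limma found 27, 42, 48 and 49 of 50 genes each that had been shifted by 1, 2, 3 and 4 log2 units, and 8 of its 174 calls were false. Alternatives were the replicate number as a block, quantile normalization once more, dim genes left out, the mean of all features, array weights, eBayes trend and robust options, and each array left out. No 2 arrays held identical values, and 3 arrays per genotype limit the precision. The labels and files give no batch or date.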

Additional observations from a re-analysis of the deposited data

How the results depend on the processing

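Sfrp1_KO and WT share replicate numbers. The correlations of deviations from the group means across genes were 0.18, -0.12 and 0.17 for same-numbered arrays. For the other pairs they ran from -0.33 to 0.25. As each genotype had 3 arrays, these values cannot decide whether same-numbered arrays belong together. With the replicate number as a block 297 genes were called higher and 238 lower, and 1 of the 9 markers was called, Cd44. Under it Epcam (-2.56, limma adjusted p = 0.0981) and Thy1 (0.89, 0.0766) were not called. Cd34 passed after quantile normalization once more (1.56), with array weights (1.70) and with dim genes left out (1.57). Prom1, never called, took the opposite sign with array weights (-0.0059). Leaving out single arrays moved the genes called higher between 191 and 487, those called lower between 100 and 407, and the markers called between 0 and 3. The differences then ran from 1.29 to 1.97 for Cd34, -3.03 to -2.01 for Epcam, -3.76 to -2.94 for Cd44, 0.77 to 1.03 for Thy1, 0.36 to 0.65 for Cd200, -0.049 to 0.072 for Prom1 and -0.022 to 0.11 for Ptprc. Ptprcap, in neither case called, ran from -0.32 to 0.035. Cd24a and Pecam1 kept their sign and stayed uncalled under all alternatives that tested them. Of the other 52 genes, 50 were on the same side of the threshold after quantile normalization once more (Ezr and Has3 were not) and 43 under the block, where Itga6, Cd47, Lgr6, Ezr, Has3, Lad1, Slc6a8 and Slc41a2 were not called (limma adjusted p of 0.052 to 0.102) and Lgals1 was (0.0466). With array weights Laptm5, Flt1, Prom2, Lgals1, Vcam1, Tnfrsf26 and Hexa were called as well (limma adjusted p of 0.029 to 0.0486). Vcam1, Tnfrsf26 and Hexa were also called with dim genes left out, and Vcam1 with trend and robust options. The cause of these changes was not tested. Signals at or near background (Prom1, Ptprc, Pecam1 and, in Sfrp1_KO, Epcam) allow no statement that a transcript is absent.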
